A study of Mus musculus with 14 samples.

Results

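Genes of the alveolar epithelium and of its repair were followed in lung of Kmt2a knockout mice. The set was chosen by name and holds 41 genes: 15 of the alveolar type 2 cell, 10 of the alveolar type 1 cell and 16 of repair and injured epithelium. Of these, 25 had a row among the 3956 genes of the deposited Kmt2a table, namely 12 type 2, 6 type 1 and 7 repair genes. The table holds a gene only where the authors' adjusted p was below 0.05, so the call itself applies to 100% of its genes, and the 16 genes without a row were not analysed here. The absence of a row says nothing on whether those genes differed. They are Sftpc, Hc and Egfl6 of the type 2 list, Hopx, Cav1, Sema3e and Cldn18 of the type 1 list, and Krt8, Krt18, Krt19, Hbegf, Krt17, Krt5, Trp63, Ngfr and Plaur of the repair list.

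The groups were lung RNA of 3 mice labelled Kmt2a knockout (KO) and 3 labelled wild type (WT), and, in a second comparison of the study, 4 labelled Men1 KO and 4 labelled WT. The labels used here give neither strain, sex nor age, and name no Cre line, promoter or cell type for either knockout. Neither Kmt2a nor Men1 had a row in its table, so the genotypes could not be checked on the deleted genes. The extraction protocol speaks of macrophages from the peritoneal cavity. In the Kmt2a libraries, lung epithelial genes were abundant, as given for Sftpb, Ager and Scgb1a1 below. No type 1 or type 2 gene had a row in the Men1 table, so its tissue label could not be checked in this way.

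Alveolar type 2 cells are cuboidal cells that make, store and recycle surfactant, the lipid and protein film that keeps alveoli open, and they renew the epithelium. Alveolar type 1 cells are thin and flat and form most of the surface for gas exchange. After injury, type 2 cells divide and pass through a stretched intermediate state, marked in mouse by keratins, claudins, stratifin and galectin-3, before they become type 1 cells. Kmt2a encodes MLL, a histone methyltransferase that works with menin, the product of Men1.

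Every one of the 25 genes with a row was higher in the Kmt2a KO, where 50.5% of the table's genes were higher. At least a 2-fold rise was seen in 22 of them, against 23% of the table. The exceptions were Sftpb, Abca3 and Muc1, with log2 ratios of group means from 0.84 to 0.90. The median log2 ratio was 1.95 for the 12 type 2 genes, 1.39 for the 6 type 1 genes and 1.85 for the 7 repair genes, and 0.31 over the table. Since genes had to pass the authors' test to be listed, and the names were chosen with earlier results of these data known, these counts describe the listed genes and are no test of the set. In bulk tissue, more cells of a type and more RNA per cell cannot be told apart.

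The deposited Kmt2a values are means over libraries, given to 15 significant digits. Whole reads of the single libraries were recovered from them for both groups in 17 of the 25 genes, and for the WT alone in 5 more, Sftpd, Chil1, Slc34a2, Lyz1 and Emp2. For Sftpb, Sftpa1 and Ager the means were too large. Letters a, b and c name the 3 libraries of a group here, in an order that cannot be tied to animals. Over the 3869 genes recovered in both groups, a library held 3158610 to 4955889 reads. In all 17 genes every KO library lay above every WT library, which was the case in 49.6% of the recovered genes, and in 97.2% counting either direction. With 3 against 3 libraries, an exact two-sided permutation test cannot go below 0.1 for any single gene. A quasi-likelihood test in edgeR on the recovered reads called all 17 higher, against 50.2% of the genes tested, with Benjamini-Hochberg adjusted p-values from 0.00265 (Akap5) to 0.0238 (Lamp3). That adjustment runs over genes already selected by the authors on the same libraries. In either direction the test called 99.9% of them, so a call of the 17 adds no separate support. The same holds for a lack of overlap, here and in single genes below. Without KO library a, the edgeR test called 13 of the 17, leaving out Cldn4, Lamp3, Lpcat1 and Napsa at adjusted p of 0.0514 to 0.0573. Losing KO library b, KO library c or WT library b cost the call of Lamp3 each time, together with Rtkn2, with Rtkn2 and Napsa, and with Cldn4. Calls fell over all genes tested as well. Without KO library a, b or c, 87.4%, 93.5% and 87.4% were called in either direction, and 95.1% without WT library b.

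**Figure D1:**
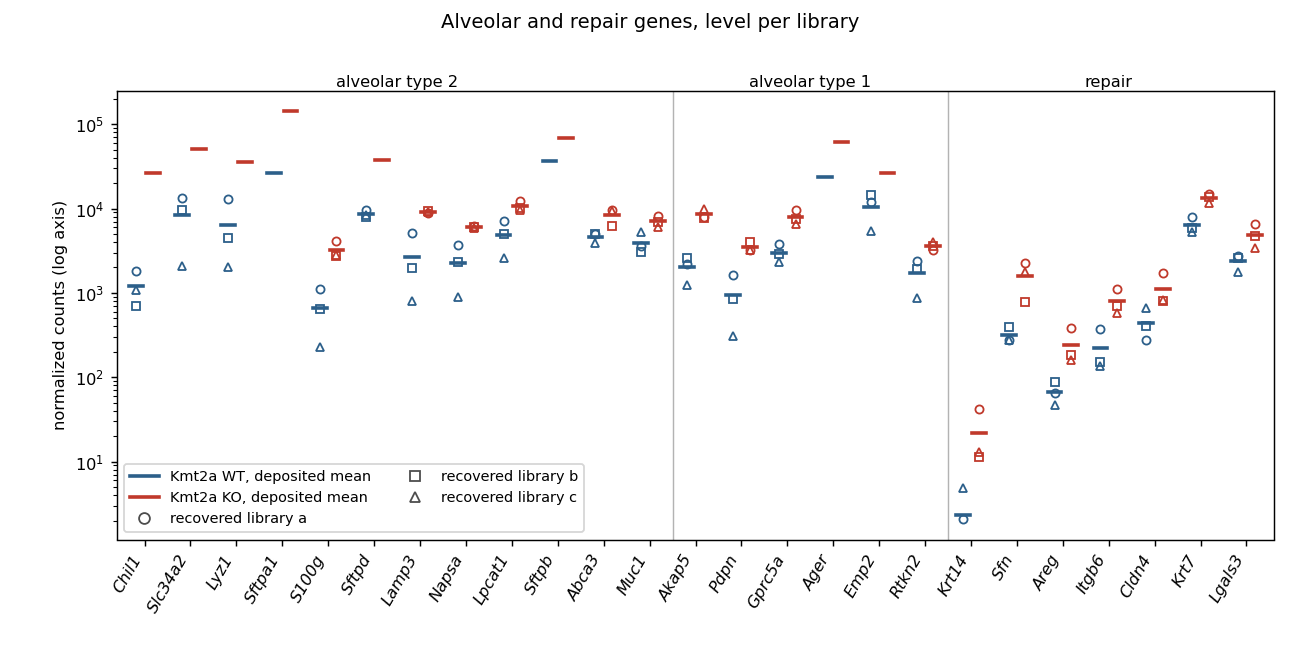
Level of the 25 genes per library, in normalized counts on a log axis, with WT in blue and KO in red. Horizontal bars are the deposited means and open symbols the recovered libraries (WT library b of Krt14, at 0, is not drawn). In the 17 genes with symbols in both groups, no KO symbol reaches down to a WT symbol.

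The 250 bases before the gene start are shown for 3 type 2 genes to show where the searched motifs stood, from RefSeq on build GRCm38.p6, 5′ to 3′ on the gene's strand. Capitals mark the core of the NKX2-1 motif in Sftpa1 (chr14:41131538-41131787, plus strand), the AP-1 motif in Sftpb (chr6:72304360-72304609, plus strand) and the TEAD motif in Lamp3 (chr16:19706366-19706615, minus strand).
Sftpa1: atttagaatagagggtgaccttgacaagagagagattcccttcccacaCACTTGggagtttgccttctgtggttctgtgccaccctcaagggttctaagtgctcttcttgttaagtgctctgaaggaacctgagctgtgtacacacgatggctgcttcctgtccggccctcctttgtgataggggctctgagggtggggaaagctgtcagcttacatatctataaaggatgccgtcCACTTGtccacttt
Sftpb: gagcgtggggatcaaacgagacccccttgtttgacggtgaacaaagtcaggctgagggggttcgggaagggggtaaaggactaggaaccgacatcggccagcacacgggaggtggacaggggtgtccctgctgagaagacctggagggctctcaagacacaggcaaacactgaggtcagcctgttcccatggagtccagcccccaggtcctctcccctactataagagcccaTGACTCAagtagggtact
Lamp3: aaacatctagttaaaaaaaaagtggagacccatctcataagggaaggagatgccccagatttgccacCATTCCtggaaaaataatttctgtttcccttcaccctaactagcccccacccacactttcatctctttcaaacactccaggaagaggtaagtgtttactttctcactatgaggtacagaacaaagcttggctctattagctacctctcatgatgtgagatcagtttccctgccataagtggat
The start is that of RefSeq, which for Sftpa1 lies 6 bases inside the gene as the deposited table places it, so that window ends within the table's gene. In Sftpa1 the core CAAGTG stood on the opposite strand, starting 202 and 14 bases before the RefSeq start. In Sftpb the AP-1 letters TGANTCA started 18 bases before it, and in Lamp3 the TEAD letters GGAATG lay on the opposite strand, 183 bases before it. Such windows were at hand for 21 of the 25 genes (22 windows, 2 of them for Itgb6), and each motif was searched on both strands. TEAD letters were in 6 of the 22 windows (27.3%, Abca3, Krt14, Lamp3, Lyz1, Muc1 and Slc34a2), against 12.6% of 32851 windows of all genes. The NKX2-1 core was in 2 (9.09%, Lyz1 and Sftpa1) against 11.6%, and the longer NKX2-1 motif CACTCAAG in 0 against 0.965%. AP-1 letters were in 2 (9.09%, Cldn4 and Sftpb) against 6.75%, GC boxes (GGGCGG) in 9 (40.9%) against 32.7%, and the single p53 decamer motif in 1 (4.55%, Lyz1) against 7.13%. A match is a string of letters, not a shown binding site.

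Among the surfactant proteins, the hydrophilic lung collectins rose more than Sftpb, the hydrophobic protein that spreads the surfactant film. Sftpa1, surfactant protein A, had a mean of 26526 normalized counts in the WT and 141717 in the KO, a log2 ratio of 2.42 (adjusted p = 3.53e-12 in the authors' deposited table). Sftpd, surfactant protein D, had a mean of 8695 in the WT, with libraries at 9666, 8003 and 8414 (SD 866, n = 3), and of 37912 in the KO, a log2 ratio of 2.12 (adjusted p = 2.85e-41). Sftpb went from 37056 to 69072, a log2 ratio of 0.90 (adjusted p = 2.11e-10). In levels per kb of gene length, Sftpb led the 12 type 2 genes in the WT, at 18829 against 9275 for Sftpa1, and Sftpa1 led in the KO, at 49551 against 35098 for Sftpb. Sftpa1 and Sftpd are neighbours on chromosome 14 (Sftpa1 at chr14:41131782-41136452, Sftpd at chr14:41172214-41185149), 35.8 kb apart with 0 other table genes between them. Their positions are those of the deposited table.

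Chil1, a chitinase-like secreted protein of type 2 cells and macrophages, had the largest rise of the 25. Its WT libraries were at 1794, 690 and 1091 normalized counts (mean 1192, SD 559, n = 3) and its KO mean was 26078, which is 21.9-fold higher, a log2 ratio of 4.45 (adjusted p = 5.94e-32 in the authors' deposited table). Leaving out each WT library in turn gave 4.18 to 4.87. Per kb, Chil1 was the last of the 12 type 2 genes in the WT, at 425, and the sixth in the KO, at 9300.

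Slc34a2 encodes the phosphate transporter of the type 2 cell surface. Its WT libraries stood at 13380, 9679 and 2081 (mean 8380, SD 5760, n = 3), and its KO mean was 50286, a log2 ratio of 2.59 (adjusted p = 5.90e-05). S100g, the calcium-binding calbindin-D9k, stood at 4071, 2699 and 2780 in the KO libraries and at 1123, 640 and 231 in the WT ones, a log2 ratio of 2.26 (adjusted p = 0.000138). The lowest KO library was thus 2.4 times the highest WT library. Without WT library a the log2 ratio of S100g was 2.87, and without WT library c 1.85.

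Lyz1, the lysozyme gene P of type 2 cells and Paneth cells, had WT libraries at 12846, 4487 and 2047 (mean 6460) and a KO mean of 35732, a log2 ratio of 2.47 (adjusted p = 0.000264). It rested on the WT libraries more than most: without WT library a it was 3.45, and without WT library c 2.04. Lyz1 lies next to its near-identical copy Lyz2, the lysozyme M gene of macrophages and type 2 cells, at chr10:117277331-117282321, which went from 36082 to 192655 (log2 ratio 2.42). How reads were divided between the copies is uncertain.

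Genes of the lamellar body, the organelle that stores surfactant, and the remaining type 2 genes differed in size of change. Lamp3, a membrane glycoprotein of the lamellar body, stood at 8888, 9354 and 9009 in the KO libraries and at 5137, 1977 and 808 in the WT libraries, a log2 ratio of 1.78 (adjusted p = 0.0111). The KO libraries lay within 1.05 times of each other and the WT libraries within 6.36 times. Without WT library a the log2 ratio was 2.71, and without WT library c 1.35. Abca3, the transporter that carries phospholipid into the lamellar body, stood at 9509, 6145 and 9323 against 5010, 5014 and 3929, a log2 ratio of 0.84 (adjusted p = 0.00353). Napsa, the protease that trims surfactant proteins B and C, stood at 6217, 5978 and 5926 against 3654, 2323 and 885, a log2 ratio of 1.40 (adjusted p = 0.0141). Lpcat1, which makes the saturated phosphatidylcholine of surfactant, stood at 12226, 10036 and 9649 against 7153, 4959 and 2580, a log2 ratio of 1.12 (adjusted p = 0.0155). Muc1, a membrane mucin also found on airway cells, stood at 8236, 6866 and 6077 against 3589, 3013 and 5201, a log2 ratio of 0.84 (adjusted p = 0.00933). In none of these 5 genes did the groups overlap, as in 97.2% of the recovered genes in either direction. The gap was narrowest in Muc1, whose lowest KO library was 1.17 times its highest WT library.

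Ratios between genes within a library remove what scales both genes alike. The pairs shown here and below followed no stated rule, and the share of all pairs without overlap was not computed. S100g over Abca3 was 0.428, 0.439 and 0.298 in the KO libraries and 0.224, 0.128 and 0.0589 in the WT ones, without overlap. Lamp3 over Abca3 was 0.935, 1.52 and 0.966 against 1.03, 0.394 and 0.206, and the groups overlapped, as they did for Napsa over Abca3, Lpcat1 over Abca3 and Lamp3 over Muc1.

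The type 1 genes were led by Akap5, an anchor protein for protein kinase A. Its libraries were at 7872, 7765 and 9889 in the KO and at 2196, 2575 and 1246 in the WT, a log2 ratio of 2.08 (adjusted p = 2.11e-10). The lowest KO library was 3.02 times the highest WT library, the widest gap among the 17 genes recovered in both groups. Pdpn, the membrane glycoprotein podoplanin on the apical side of type 1 cells, was at 3255, 4060 and 3266 against 1650, 840 and 312, a log2 ratio of 1.92 (adjusted p = 0.00214), or 2.61 without WT library a. Gprc5a, an orphan receptor of the lung epithelium, was at 9617, 7611 and 6589 against 3771, 2889 and 2352, a log2 ratio of 1.40 (adjusted p = 7.87e-07).

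Ager, the receptor RAGE and the most abundant of the 6 type 1 genes per kb in both groups, went from a mean of 23565 to 61121, a log2 ratio of 1.37 (adjusted p = 0.0357). It had the highest adjusted p of the 25 genes. Emp2, a tetraspan membrane protein of type 1 cells, had WT libraries at 11834, 14328 and 5371 (mean 10511) and a KO mean of 26507, a log2 ratio of 1.33 (adjusted p = 0.00262). Rtkn2, a marker gene of type 1 cells, was at 3264, 3616 and 3968 in the KO libraries and at 2396, 1931 and 858 in the WT ones, a log2 ratio of 1.06 (adjusted p = 0.0245), with no overlap. Akap5 over Rtkn2 was 2.41, 2.15 and 2.49 within the KO libraries and 0.917, 1.33 and 1.45 within the WT libraries, and Pdpn over Rtkn2 did not overlap either. Per kb, the order Ager, Emp2, Gprc5a, Pdpn held in both groups, while Akap5 stood below Rtkn2 in the WT (294 against 312) and above it in the KO (1247 against 652).

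**Figure D2:**
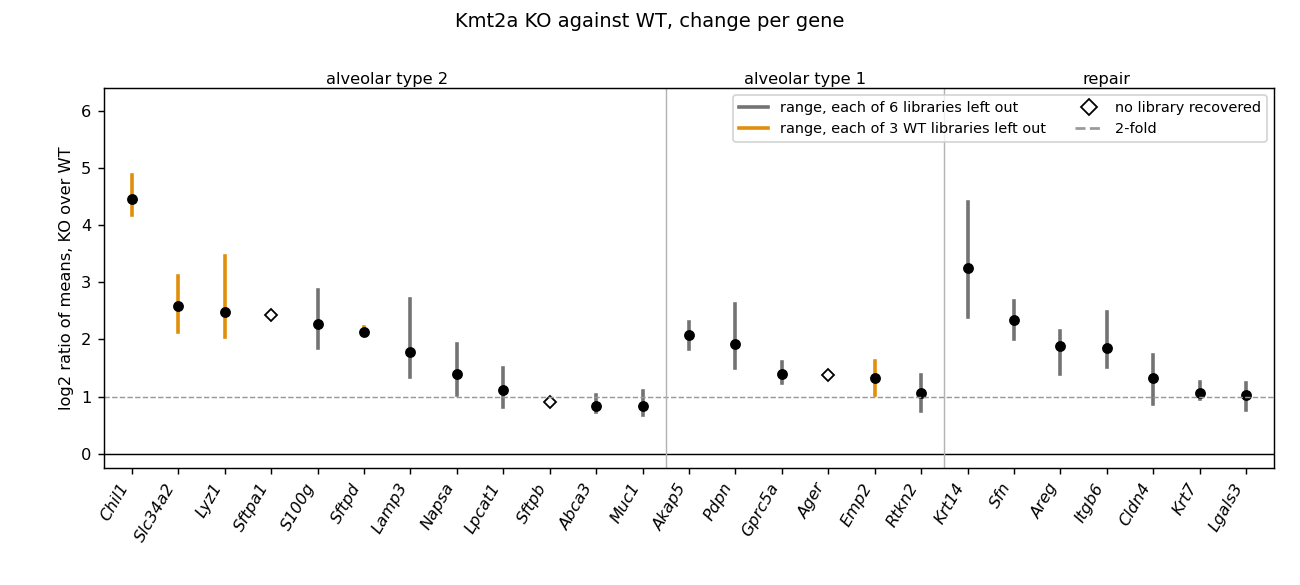
Log2 ratio of the group means (KO over WT) of the 25 genes, from the deposited means, with bars for the range when each recovered library was left out in turn (6 libraries in grey, the 3 WT libraries alone in orange) and a dashed line at 2-fold. All points lie above 0, and the lowest bar end is 0.68, for Muc1.

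The repair genes differed most in their abundance. Krt14, a keratin of basal cells, was barely present: 49, 13 and 14 reads in the KO libraries and 2, 0 and 4 in the WT ones, or 41.7, 11.4 and 13.1 against 2.08, 0 and 4.9 normalized counts. Its log2 ratio was 3.24 (adjusted p = 0.0119), 1.38 with a pseudocount of 10, 2.39 without KO library a and 4.40 without WT library c. The groups did not overlap, yet at these reads the size of the change is poorly set.

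Sfn, stratifin or 14-3-3 sigma, a p53 target that holds the cell cycle, stood at 2271, 774 and 1744 in the KO libraries and at 275, 395 and 274 in the WT ones, a log2 ratio of 2.34 (adjusted p = 2.40e-07). Areg, the EGF receptor ligand amphiregulin, stood at 385, 185 and 161 against 64.6, 87.1 and 46.5, a log2 ratio of 1.89 (adjusted p = 0.000205). Itgb6 is the subunit of the integrin that activates TGF-beta on injured epithelium. It stood at 1126, 700 and 572 against 378, 151 and 136, a log2 ratio of 1.85 (adjusted p = 0.000749). Leaving out WT library a gave 2.48, and leaving out KO library a gave 1.52. None of these 3 genes overlapped between groups, like 97.2% of the recovered genes. Areg and Itgb6 were highest in KO library a, as Sfn was.

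Cldn4, a tight junction claudin raised in injured alveolar cells, stood at 1742, 809 and 815 in the KO libraries and at 276, 401 and 657 in the WT ones, a log2 ratio of 1.33 (adjusted p = 0.0142). Krt7, a keratin of simple epithelium and of mesothelium, stood at 14894, 13569 and 11665 against 7857, 5956 and 5277, a log2 ratio of 1.07 (adjusted p = 1.20e-05). Lgals3, galectin-3, which macrophages also carry, stood at 6475, 4705 and 3416 against 2737, 2623 and 1785, a log2 ratio of 1.03 (adjusted p = 0.00543). The 3 genes did not overlap between groups, nor did 97.2% of the recovered genes. Lgals3 was the most abundant repair gene per kb in both groups (1282 in the WT, 2619 in the KO), followed by Krt7 (902 and 1896). Within libraries, Sfn over Krt7 and Areg over Krt7 overlapped between the groups, and Itgb6 over Krt7 did not (0.0756, 0.0516 and 0.049 against 0.0481, 0.0254 and 0.0258).

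The spread between libraries was uneven. In the 6 type 2 genes recovered in both groups with means of at least 50, the highest library was a median of 1.31 times the lowest in the KO and 3.45 times in the WT. In the 4 type 1 genes it was 1.26 and 2.43 times, in 6 repair genes 2.06 and 1.70 times, and over 2743 genes of the table it was 1.23 and 1.30 times. WT libraries spread more widely than KO libraries in 12 of these 16 genes (75%), against 62.7% of the 2743. Of the 15 type 1 and type 2 genes with recovered WT libraries, 12 were lowest in WT library c (80%), against 38.4% of 3138 genes, and 11 were highest in WT library a (73.3%), against 34.2%. The 6 repair genes were all highest in KO library a, as were 5 of the 6 type 2 genes and 1 of the 4 type 1 genes, against 880 of the 2743.

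Markers of other cell types also differed between the groups, some higher and some lower in the KO. Sums here are over the genes recovered in both groups. Club cell markers (8 of 18 with a row, all lower, median log2 ratio −1.20) were summed over 3 genes, without Scgb1a1. Their sum ran from 4508 to 5494 in the KO libraries and from 7849 to 16110 in the WT ones, with the highest value in WT library c. Scgb1a1, the club cell secretory protein, fell from 1958770 to 612534. Lgals3 is also on the macrophage list and Krt7 on the mesothelial list, where Krt7 alone made up 74.8 to 84.2% of the summed level. Without Lgals3, macrophage markers (13 of 15 with a row higher, of 29 in the list, Lgals3 among them) ran from 12831 to 21454 in the KO libraries and from 4141 to 9925 in the WT ones. Without Krt7, the 3 mesothelial markers summed ran from 3142 to 5022 and from 1080 to 2519 (all 5 with a row higher, of 15, Krt7 among them). Smooth muscle markers (10 of 11 lower, of 15) ran from 22606 to 25800 in the KO and from 36473 in WT library a to 71123 in WT library c. Cardiac muscle genes (all 9 with a row lower, of 10) ran from 4987 to 8602 in the KO and from 19154 to 74457 in the WT. Red cell genes (4 of 6 with a row, all lower, median log2 ratio −2.81) ran from 245 to 844 in the KO and from 2838 to 10115 in the WT, for the 1 gene recovered, Hba-a2. Endothelial markers (3 of 24 with a row, all lower, median −0.93) ran from 1324 to 2185 and from 2404 to 4392 over 2 genes. The 1 fibroblast marker with a row, Tcf21 (log2 ratio −1.22), overlapped between groups, and the 1 ciliated cell marker, Dnah5 (0.98), was higher in every KO library. Of 4 neutrophil and mast cell markers with a row, of 19, Ltf was higher and Mpo, Mcpt4 and Cma1 were lower. No marker on these lists with a row had a group mean of 0. The part of these differences in the values of the alveolar and repair genes was not tested.

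**Figure D3:**
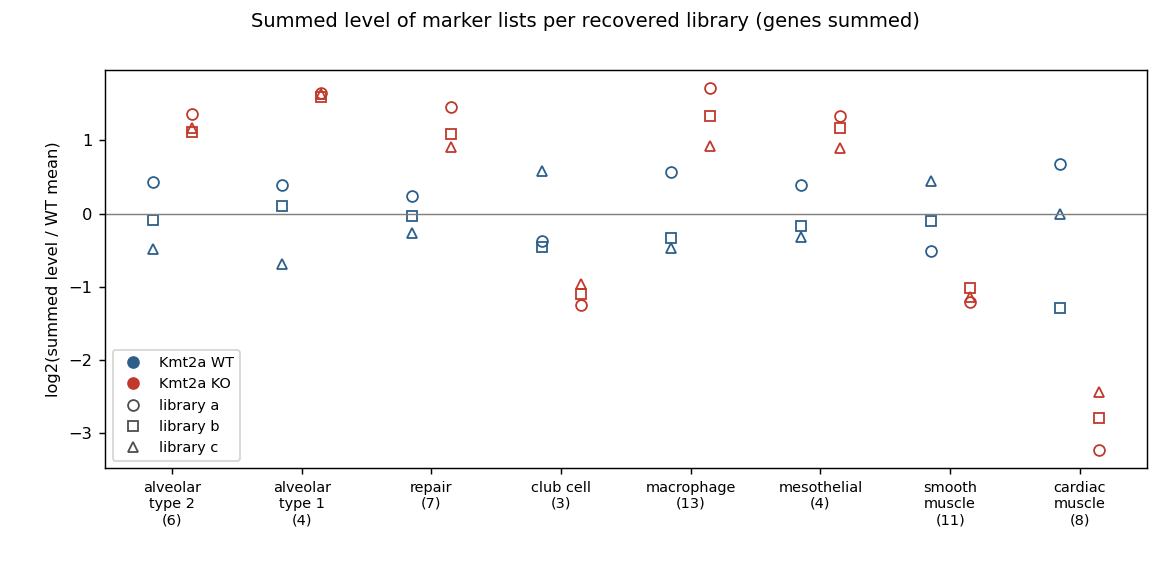
Summed normalized counts of marker lists in each recovered library, as log2 of the sum over the mean of the 3 WT libraries. Brackets give the number of genes summed, with WT in blue and KO in red. The macrophage sum includes Lgals3, and the mesothelial sum is mostly Krt7. The repair sum is mostly Krt7 and Lgals3, so these sums share genes. The alveolar, repair, macrophage and mesothelial sums lie higher in every KO library, and the club cell, smooth muscle and cardiac muscle sums lower.

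Other genes of the same pathways, from lists that exclude the 41, were mostly higher where they had a row, in a table where 50.5% of genes were. Of 50 other surfactant and lamellar body genes, 27 had a row, 24 higher and 3 lower, with a median log2 ratio of 1.13. The largest changes included Scd1, stearoyl-CoA desaturase, which went from 5523 to 68378 (log2 ratio 3.63), and Fasn, fatty acid synthase, from 3682 to 19237 (2.39). Pla2g1b, a secreted phospholipase, fell by 2.68 on the log2 scale. Of 32 other type 1 genes, 16 had a row and all 16 were higher (median 1.35), led by Lama3, a chain of laminin-332 (2.06), Cdkn2b, a cell cycle inhibitor (2.03), Timp3, an inhibitor of metalloproteases (2.02), and the proteoglycan gene Spock2 (1.84). Of 44 other repair and transitional genes, 18 had a row, 17 higher and 1 lower (median 1.28). By log2 ratio without a pseudocount, they were led by Sprr1a, a cornified envelope protein (5.38), Orm1, an acute phase protein (5.35), and Lcn2, lipocalin-2 (4.30). Sprr1a stood at 96.1, 18.4 and 26.1 normalized counts in the KO libraries and at 1.04, 1.1 and 1.22 in the WT ones. At so low a WT level the size of its change is poorly set. Cyr61, a target of YAP, fell by 2.18 on the log2 scale.

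Transcription factors of the lung epithelium went mostly the other way. Of 40 in the list, 10 had a row, 2 higher and 8 lower, with a median log2 ratio of −0.80. Etv5, an ETS factor that maintains type 2 cells, stood at 4835, 5085 and 4141 in the KO libraries and at 2201, 1918 and 583 in the WT ones (log2 ratio 1.58, adjusted p = 0.0042). Cebpa, a factor of type 2 cell maturation, stood at 10303, 7175 and 8811 against 4473, 3277 and 4623 (log2 ratio 1.09, adjusted p = 2.88e-05). Nkx2-1, the factor that drives surfactant protein genes, was lower, at 5338, 4978 and 5169 against 6780, 7374 and 7439 (log2 ratio −0.48, adjusted p = 0.000133). None of these 3 overlapped between groups, as was the case in 97.2% of the recovered genes in either direction. Foxp2 fell by 1.46 and Klf4 by 1.18 on the log2 scale.

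**Figure D4:**
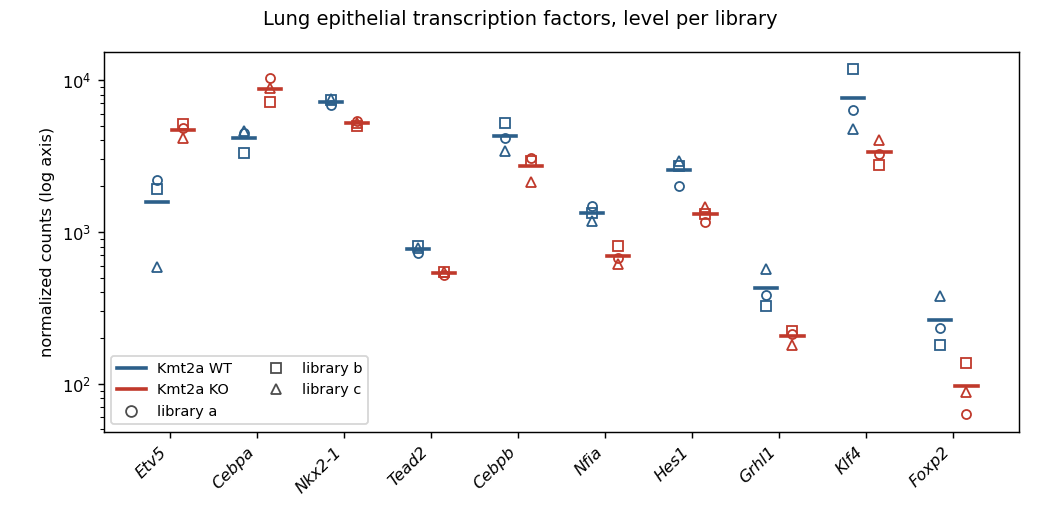
Level of the 10 lung epithelial transcription factors with a row, in normalized counts on a log axis, with deposited means as bars and recovered libraries as symbols, WT in blue and KO in red. Etv5 and Cebpa lie higher in every KO library and the other 8 factors lower.

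A list of 17 EGF family ligands, receptors, shedding proteases and an inhibitor had 7 genes with a row, 5 higher and 2 lower. Besides Areg, the higher genes were the ligand genes Nrg1 (log2 ratio 1.14) and Tgfa (0.61), the receptor gene Erbb3 (0.60) and Adam10 (0.62), a protease that sheds ligands. Btc, betacellulin, fell by 1.37 on the log2 scale. Erbb4, a receptor for Nrg1 and Btc, was at 6.8, 14.9 and 11.2 in the KO libraries and at 135, 18.7 and 90.6 in the WT ones, a log2 ratio of −2.90 (adjusted p = 0.000811). Of 35 keratins, 5 had a row. Besides Krt14 and Krt7, Krt9 and Krt80 (1372 in the WT, 3066 in the KO) were higher, and Krt10 was lower (log2 ratio −0.70). Krt9 was at a low level, with means of 6.08 in the WT and 31.2 in the KO (log2 ratio 2.36).

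In the Men1 comparison, Krt14 alone of the 41 genes had a row. It stood at 16.1, 7.26, 29.9 and 17.3 normalized counts in the 4 KO libraries and at 10.6, 4.68, 4.83 and 4.15 in the 4 WT libraries (17.6 ± 9.33 against 6.08 ± 3.06, SD, n = 4 each). The groups overlapped, since 1 KO library lay below the highest WT library. The log2 ratio was 1.54, the authors' deposited adjusted p was 0.186, and an exact two-sided permutation test gave p = 0.0571, where 0.0286 is the smallest possible. It was thus not called, and 13 of the 772 genes listed for that comparison were (1.68%). That list also holds only genes selected by the authors, Krt14 among them. The share is therefore not one of all genes measured. The other 40 genes were not analysed there.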

How the data were processed

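Lung RNA was turned into libraries by the NEBNext Ultra kit, which does not mark strand, per the labels' protocols for the kit. HISAT2 2.0.5, featureCounts 1.5.0-p3, DESeq2 1.16.1 and the builds GRCm38 and mm10 are named, per the submitters' processing notes, without roles. The Men1 table holds raw counts and normalized counts per library, as deposited. The Kmt2a table, where the KO column is named MLL, holds a signal, the group mean of normalized counts, per the file headers. Its WT column was taken as the WT group of the Kmt2a labels. The log2 fold change and the p-value and adjusted p-value of both tables are the authors' own, as deposited. In the Men1 table, 2 further WT columns matched no sample and were not used.

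The 41 genes and all lists were chosen with earlier results of these data known. The authors' adjusted p below 0.05 was the call. Log2 ratios are of deposited means, with no pseudocount unless stated. They were computed in Python 3.11.15. A mean is a sum of 3 whole read numbers, each times a step of 1 read. The steps were found in the lowest means, and all means up to 10000 resolved to 1 solution (3853 KO and 3878 WT), as did 26 of 69 KO and 42 of 48 WT means between 10000 and 20000. The recovery was tested on simulated means. Recovered reads were tested in edgeR 4.0.16 (quasi-likelihood) and DESeq2 1.42.0 with the authors' size factors (0.8168 to 1.176). Alternatives were other thresholds, filters, pseudocounts, scalings and tests, and leaving out each library. Krt14 in Men1 was tested by exact permutation of log2(normalized count + 1). Nothing in the labels says that libraries came from separate litters or days. The p-values weigh the difference between groups against the spread between these libraries only. A spread between litters or days could not be judged. Every gene with a row is named. The rule for a full description took up to 6 genes of largest change per group and those moved over 1.5 times by 1 library. Values are also given for Sftpb, Abca3, Napsa, Lpcat1, Muc1 and Lgals3, which lie outside it. Of each other list, up to 4 genes of largest change could be named. Nkx2-1, Cyr61, Krt10, Tgfa, Erbb3 and Adam10 lie outside this and were named after their values were seen. One result is not reported here because it names an item withheld for evaluation.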

Additional observations from a re-analysis of the deposited data

Results flagged for a closer look

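Krt14 in the Men1 WT library 6074 stood at 10.6 normalized counts, far from the other 3 WT libraries, which ran from 4.15 to 4.83. The gap was 0.895 of the range of the group. Chance puts about 1 in 20 groups past the limit used (Dixon's test, 95%). The raw count behind the value was 9. Without this library the log2 ratio of Krt14 in the Men1 comparison was 1.95.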

How the results depend on the processing

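No log2 ratio of a gene changed sign under any alternative run. At an adjusted p below 0.001, 13 genes were higher and 12 at least 2-fold higher, and with TMM scaling of recovered reads, possible for 17 genes only, 14 were at least 2-fold higher. Leaving out each KO library in turn was possible for 17 genes. All 17 stayed higher, and 12 to 16 were at least 2-fold higher (12 without KO library a, 14 without KO library c). Leaving out each WT library was possible for 22 genes. All 22 stayed higher, and 17 to 20 were at least 2-fold higher. The count of 17 genes without overlap cannot fall when a library is left out. The edgeR calls, with alternatives chosen after seeing the data, ran from 13 to 17 of 17, and from 87.4% to 99.9% of all genes tested. Centring on the median of the table (0.31) lowered every log2 ratio, to 0.53 at the lowest (Abca3), and left 18 genes at least 2-fold higher. No paired analysis was possible because the animal numbers are not shared between groups. Reads of single libraries were not recovered for the most abundant genes, so their spread is unknown.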
